A study of Mus musculus with 12 samples.

Results

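Heat shock chaperones are the proteins of the cytosol and mitochondria that fold, refold and escort other proteins. Their transcripts were followed in mouse lung after the alkylating drug busulfan, alginate oligosaccharides (AOS), both or neither. The set holds 49 genes, taken by gene symbol from the 19726 genes of the deposited table. All 49 were found, and all 49 passed the low-count filter that left 15863 genes for testing. They fall into 9 families: 7 HSP70 genes, 3 HSP110 genes, 3 mitochondrial chaperones, 8 genes of HSP90 and its co-chaperones, 5 small heat shock proteins, 8 DNAJ genes, 6 BAG genes and other HSP70 partners, 7 subunits of the CCT chaperonin and the transcription factors Hsf1 and Hsf2.

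HSP70 proteins bind exposed hydrophobic stretches of unfolded proteins and release them in a cycle driven by ATP. DNAJ proteins deliver the clients, HSP110 and BAG proteins exchange the nucleotide, and Stip1 hands clients on to HSP90, which completes the folding of kinases and steroid receptors. Small heat shock proteins hold unfolded chains without using ATP, the ring-shaped CCT complex folds actin and tubulin, and Hspd1 with Hspe1 forms the corresponding ring of the mitochondrial matrix. Many of these genes are activated by HSF1, which on heat or other protein-damaging stress forms trimers and binds heat shock elements, repeats of the unit GAA and its reverse complement TTC.

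RNA-seq libraries were made from total RNA of lungs of mice whose strain is labelled IRC. Busulfan crosslinks DNA and is used to clear bone marrow before transplantation, and AOS are short sugar chains cut from the seaweed polysaccharide alginate. Busulfan + AOS mice were dosed a single time with busulfan at 40 mg/kg and afterwards with AOS (10 mg/kg, 5 weeks). Busulfan mice had that single dose alone, AOS mice had AOS alone at the same dose and for the same time, and control mice were untreated. Each group had 3 libraries, and the labels give no age, no time between busulfan and tissue collection, and no statement that the 3 libraries came from separate animals, so p-values measure the spread between these samples, which may be technical. Titles and protocol name lung while the tissue field reads "Cells", and the titles name the busulfan group BA0 while the design text calls it B0.

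Library totals lay between 16209221 and 17168764 estimated counts. All 10 lung identity transcripts, among them the surfactant gene Sftpc and the alveolar type 1 gene Ager, were above 0 in every library. Summed over 7 genes, B cell transcripts stood at 29.6, 42.5 and 54.3 CPM in busulfan + AOS lungs, 76.8, 52.2 and 59.7 CPM in busulfan lungs, 162, 112 and 141 CPM in AOS lungs and 106, 233 and 206 CPM in control lungs. These transcripts thus moved with busulfan in the same libraries as the chaperones, and their part in the chaperone results was not tested. In whole tissue, more or fewer cells of a type and more or less RNA per cell cannot be told apart.

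After busulfan, chaperone transcripts were higher, in most families, and no member passed as lower. Averaged over the lungs with and without AOS (6 libraries with busulfan against 6 without), 31 of 49 members rose and 0 fell, where 7.02% of all genes tested rose and 4.81% fell. Calls rest on a p-value of edgeR's quasi-likelihood test under 0.05 after Benjamini-Hochberg adjustment over all 15863 genes. The median log2 fold change was 0.46 over the 49 members and -0.012 over all genes tested. In the busulfan + AOS lungs against the AOS lungs, 22 members rose and 0 fell (background 1.56% higher and 0.744% lower, 2.3% in either direction), with a median of 0.61 against -0.007 over all genes. In the busulfan lungs against the control lungs the median was 0.38 and 0 members passed the adjusted threshold (background 0.731% higher and 0.479% lower). An unadjusted edgeR p under 0.05 was found there for 26 of 49 members and for 2964 of the 15863 genes tested. DESeq2 called 8 members and limma-voom 0 in that comparison. The background shares are those of edgeR, and none was counted over all genes for DESeq2 or limma-voom. Against the control lungs, the busulfan + AOS lungs had 24 members higher and 0 lower (background 2.43% higher and 1.65% lower, 4.08% in either direction). That comparison shares its treated libraries with the one against AOS.

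In 36 of 49 members each busulfan + AOS library lay above each AOS library, where 14.5% of all genes did so, and in 1 member, Hspa14, each lay below (12.8%). Each busulfan library lay above each control library in 20 members (11.8% of all genes), and below in 1, Hsf2 (11.3%). All 6 libraries with busulfan lay above all 6 without it in 14 members, against 3.93% of all genes, and below in 0, against 2.61%. The 14 were Hspa8, Hspa4, Hspe1, Stip1, Chordc1, Ahsa1, Fkbp4, Hspb8, St13, Tcp1, Cct3, Cct5, Cct7 and Cct8.

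The counts against a single group of 3 depend on single libraries. Shares over all genes were not counted in the fits with a library left out. A loss of calls among members therefore cannot be told from a loss over all genes. The 22 members of busulfan + AOS against AOS became 3 without busulfan + AOS replicate 1, 1 without replicate 2 of that group, 0 without AOS replicate 1, 0 without AOS replicate 2, 10 without AOS replicate 3 and 13 without control replicate 2. The 24 members of busulfan + AOS against control became 5 without busulfan + AOS replicate 1, 5 without replicate 2 of that group, 14 without AOS replicate 1 or 2, and fell to 3, 2 and 10 with control replicates 1, 2 and 3 left out in turn. Of the 31 members called in the average over both busulfan groups, 25 passed whichever of the 12 libraries was left out, and the count ranged from 25 to 34.

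**Figure D1:**
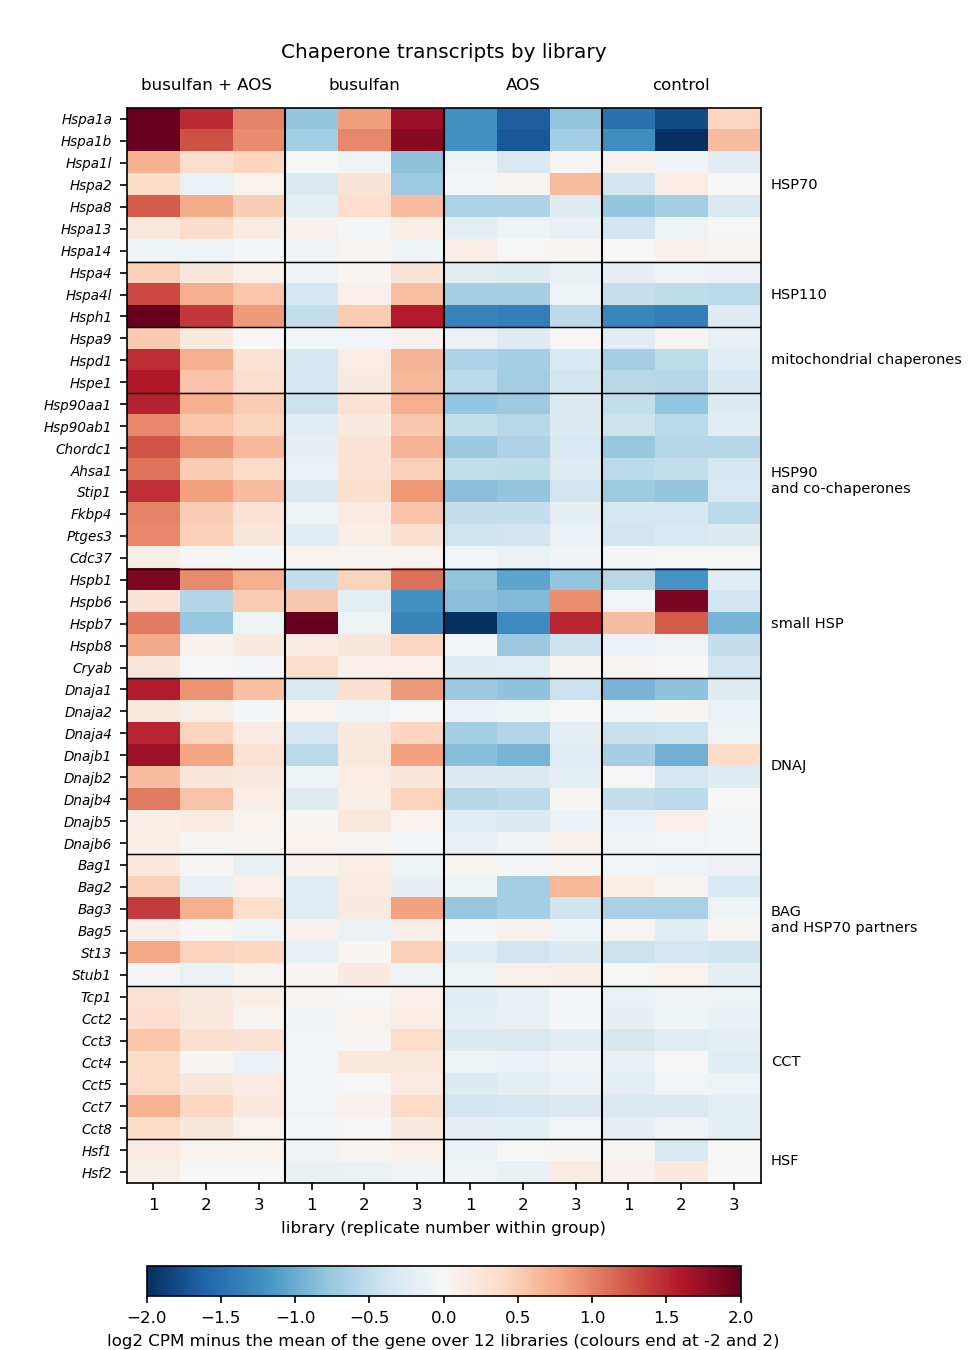
Level of the 49 chaperone genes (rows, by family) in the 12 libraries (columns), as log2 CPM minus the mean of each gene over the 12 libraries, with red above and blue below that mean. Hspa1a, Hspa1b, Hsph1 and Hspb7 carry the deepest colours, and those of Hspb7 differ between libraries of the same group. Busulfan + AOS replicate 1 is the reddest column. For most of the 31 members that rose, busulfan replicate 1 is closer to the control and AOS columns than the other busulfan libraries.

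The promoters were searched for heat shock elements in the 250 bases before each RefSeq start site (GRCm38.p6). The motifs were GAANNTTC and TTCNNGAA, each made of 2 units and identical to its own reverse complement, so 1 search covers both strands. The motifs of 3 units were GAANNTTCNNGAA and TTCNNGAANNTTC, which are reverse complements of each other and contain the shorter motifs. RefSeq promoter windows were at hand for 40 of the 49 members, leaving out Hspa8, Hspa13, Hspa9, Hsp90aa1, Hsp90ab1, Cryab, St13, Cct4 and Hsf1. A match of 2 units or more lay in 16 of the 40 (40.0%), against 14.5% of the 27025 genes with a window, and a match of 3 units in 3 of the 40 (7.5%), against 0.514%. The 16 members with a match had a median log2 fold change of 0.85 in the average over both busulfan groups, and 12 of them rose. The 24 without had a median of 0.32 and 14 rose, among them Stip1 at 1.32 and Chordc1, which had the smallest p of all members. The 9 without a window had a median of 0.30 and 5 rose. Hspa1a and Hspa1b have near-identical windows, and Hspd1 and Hspe1 share the same match, so the members with a match are not all separate elements. These are descriptions of letters in a window, and binding was not measured.

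The sequences shown are those of the strongest responders with a match and of Dnajb6, which had a 3-unit match and no call. They read 5' to 3' on the strand of the gene, with the matched letters in capitals. The inducible HSP70 genes Hspa1a (chr17:34972157-34972316 on the minus strand) and Hspa1b (chr17:34959239-34959398 on the minus strand) are near-identical neighbours, with 247 of 250 bases of the window the same. Hspb1 (chr5:135887759-135887918 on the plus strand) holds 2 matches, and Dnaja1 (chr4:40722308-40722467 on the plus strand) has 1. For these 4 the 160 bases directly before the start are shown.
Hspa1a: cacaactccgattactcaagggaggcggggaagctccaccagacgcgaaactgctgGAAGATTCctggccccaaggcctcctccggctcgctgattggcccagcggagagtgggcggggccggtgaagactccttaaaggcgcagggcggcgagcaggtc
Hspa1b: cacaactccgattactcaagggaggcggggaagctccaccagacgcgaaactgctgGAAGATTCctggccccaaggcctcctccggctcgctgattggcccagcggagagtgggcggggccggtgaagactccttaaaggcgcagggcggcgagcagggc
Hspb1: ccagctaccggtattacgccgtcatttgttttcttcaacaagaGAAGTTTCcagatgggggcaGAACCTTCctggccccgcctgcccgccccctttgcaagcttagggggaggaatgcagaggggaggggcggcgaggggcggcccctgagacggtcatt
Dnaja1: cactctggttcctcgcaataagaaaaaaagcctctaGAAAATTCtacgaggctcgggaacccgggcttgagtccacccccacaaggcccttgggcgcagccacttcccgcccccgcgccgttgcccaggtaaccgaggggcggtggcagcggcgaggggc

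For the others 30 bases around the match are shown. Hspd1 and Hspe1 are transcribed in opposite directions, and both windows hold the same match of 4 alternating units, chr1:55088053-55088082 on the plus strand for Hspe1 and read on the minus strand for Hspd1. Hsph1 (chr5:149636351-149636380 on the minus strand) has a match of 2 units and Dnajb6 (chr5:29735844-29735873 on the plus strand) one of 3. The matches of Hspd1 and Hsph1 lie before the start sites used for the windows but inside the annotated spans of these genes.
Hspe1: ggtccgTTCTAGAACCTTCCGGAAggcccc
Hspd1: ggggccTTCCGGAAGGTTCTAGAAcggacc
Hsph1: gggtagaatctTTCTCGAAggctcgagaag
Dnajb6: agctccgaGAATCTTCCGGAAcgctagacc

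Among the 7 HSP70 genes, 4 rose in the average over both busulfan groups (Hspa1a, Hspa1b, Hspa8 and Hspa13) and 0 fell. Hspa8 (Entrez gene 15481, chr9:40801276-40805202), the constitutive HSP70 of the cytosol, stood at 5138, 3716 and 3144 CPM in busulfan + AOS lungs, 1966, 2819.8 and 3413 CPM in busulfan lungs, 1437, 1447 and 1874 CPM in AOS lungs and 1298, 1402 and 1840.2 CPM in control lungs. Every library with busulfan lay above every library without it. The log2 fold change was 1.09 (SE 0.17, edgeR adjusted p = 0.00430) in the average, 1.33 (SE 0.24, edgeR adjusted p = 0.0242) in busulfan + AOS against AOS lungs and 0.85 (SE 0.24, edgeR adjusted p = 0.106) in busulfan against control lungs.

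Hspa1a (Entrez gene 193740, chr17:34969359-34972156), the stress-inducible HSP70, had 214, 127 and 89.6 CPM in busulfan + AOS lungs, 26.4, 80.6 and 148 CPM in busulfan lungs, 19.3, 14.4 and 26.1 CPM in AOS lungs and 16.1, 13.1 and 61.1 CPM in control lungs. Busulfan replicate 1 and control replicate 3 lay far from the other 2 libraries of their groups, so the busulfan and control groups overlapped, while the busulfan + AOS and AOS groups did not. Its near-identical copy Hspa1b (Entrez gene 15511, chr17:34956429-34959238) had 157, 94.1 and 74.7 CPM in busulfan + AOS lungs, 24.1, 75.7 and 137 CPM in busulfan lungs, 16.6, 12 and 24.3 CPM in AOS lungs and 16.4, 8.76 and 59.4 CPM in control lungs. Reads of such copies can be divided between them by the counting, and the sum of both was 372, 221 and 164 CPM in busulfan + AOS lungs, 50.5, 156 and 285 CPM in busulfan lungs, 36.0, 26.4 and 50.3 CPM in AOS lungs and 32.5, 21.9 and 121 CPM in control lungs. Averaged over both busulfan groups Hspa1a rose 4.51-fold, a log2 change of 2.17 (SE 0.49, edgeR adjusted p = 0.0198), and Hspa1b by 2.05 (SE 0.52, edgeR adjusted p = 0.0304). Neither passed in a comparison of 2 groups, where Hspa1a had 2.85 (SE 0.71, edgeR adjusted p = 0.0617) in busulfan + AOS against AOS lungs and 1.5 (SE 0.68, edgeR adjusted p = 0.270) in busulfan against control lungs. Without AOS replicate 2 the call of Hspa1a in the average was lost (edgeR adjusted p = 0.0509), and that of Hspa1b held in 5 of 12 fits.

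Hspa13 (Entrez gene 110920, chr16:75755190-75767276), an HSP70 of microsomes, stood at 75.8, 84.4 and 73.3 CPM in busulfan + AOS lungs, 69.2, 64.1 and 71.1 CPM in busulfan lungs, 58.1, 61.0 and 59.4 CPM in AOS lungs and 50.2, 61.4 and 65.0 CPM in control lungs. Its change was small, 0.30 (SE 0.066, edgeR adjusted p = 0.0178) in the average. Hspa1l and Hspa2, HSP70 genes best known from the testis, and Hspa14, a ribosome-associated HSP70, did not pass in any comparison. Hspa14 had 34.3, 34.0 and 35.8 CPM in busulfan + AOS lungs and 39.8, 36.6 and 37.4 CPM in AOS lungs, a log2 change of -0.13 (SE 0.059, edgeR adjusted p = 0.245). Hspa1l, at 0.552 to 1.57 CPM, was the least abundant member.

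All 3 HSP110 genes rose in the average and in busulfan + AOS against AOS lungs. Hsph1 (Entrez gene 15505, chr5:149616843-149636498), the heat-inducible HSP110, had 1393, 752 and 514 CPM in busulfan + AOS lungs, 202, 404 and 853 CPM in busulfan lungs, 113, 109 and 196 CPM in AOS lungs and 114, 109.9 and 238 CPM in control lungs. The busulfan + AOS lungs lay above all AOS and control lungs, whereas busulfan replicate 1 lay below control replicate 3. Its log2 fold change was 2.16 (SE 0.39, edgeR adjusted p = 0.00894) in the average, a 4.48-fold rise, with 2.67 (SE 0.57, edgeR adjusted p = 0.0412) in busulfan + AOS against AOS lungs and 1.66 (SE 0.55, edgeR adjusted p = 0.150) in busulfan against control lungs.

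Hspa4l (Entrez gene 18415, chr3:40744500-40796103), an HSP110 also studied in the testis, stood at 401, 265 and 234 CPM in busulfan + AOS lungs, 125, 171 and 242 CPM in busulfan lungs, 98.3, 101 and 149 CPM in AOS lungs and 116, 112 and 112 CPM in control lungs. Each busulfan library exceeded each control library, with busulfan replicate 1 closest to them. The log2 change was 1.01 (SE 0.18, edgeR adjusted p = 0.00883) in the average. Hspa4 (Entrez gene 15525, chr11:53259814-53300479), the broadly expressed member, had 310.5, 260.4 and 240.0 CPM in busulfan + AOS lungs, 211, 231 and 268 CPM in busulfan lungs, 190.1, 189 and 201 CPM in AOS lungs and 199.6, 207 and 205 CPM in control lungs. It separated the 6 libraries with busulfan from the 6 without, with a log2 change of 0.35 (SE 0.071, edgeR adjusted p = 0.0138).

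Of the 3 mitochondrial chaperones, the chaperonin genes Hspd1 and Hspe1 rose together and the mitochondrial HSP70 Hspa9 did not pass. Hspd1 (Entrez gene 15510, chr1:55077833-55088243), which encodes HSP60, had 699, 418 and 308 CPM in busulfan + AOS lungs, 202, 279.5 and 403 CPM in busulfan lungs, 165, 159 and 204 CPM in AOS lungs and 157, 177 and 215 CPM in control lungs. Hspe1 (Entrez gene 15528, chr1:55088148-55091317), which encodes its lid HSP10, had 195, 95.8 and 82 CPM in busulfan + AOS lungs, 51.9, 73.0 and 102 CPM in busulfan lungs, 45.0, 39.9 and 49.9 CPM in AOS lungs and 43.7, 43.4 and 51.4 CPM in control lungs. In both genes busulfan + AOS replicate 1 was the highest library and busulfan replicate 1 lay next to the highest AOS and control libraries. The log2 change in the average was 1.06 (SE 0.22, edgeR adjusted p = 0.0134) for Hspd1 and 1.09 (SE 0.22, edgeR adjusted p = 0.0138) for Hspe1. In busulfan + AOS against AOS lungs it was 1.43 (SE 0.31) for Hspd1 and 1.47 (SE 0.32) for Hspe1, with edgeR adjusted p = 0.0419 and 0.0440, and limma-voom did not call Hspe1 there (adjusted p = 0.0554). The annotated spans of these neighbours overlap, and whether counting used strand is not given.

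Hspa9 (Entrez gene 15526, chr18:34937414-34954351), which pulls proteins into the mitochondrial matrix, had 325, 258 and 226 CPM in busulfan + AOS lungs, 216, 217 and 241 CPM in busulfan lungs, 209, 189.5 and 224 CPM in AOS lungs and 195, 234 and 203 CPM in control lungs. Its log2 change in the average was 0.24 (SE 0.088, edgeR adjusted p = 0.107), and 0.38 (SE 0.12, edgeR adjusted p = 0.123) in busulfan + AOS against AOS lungs. Of 12 other genes of mitochondrial protein quality control, 0 passed in either direction in the average by edgeR, with a median log2 change of 0.008. An unadjusted edgeR p under 0.05 was found for 4 of these 12 and for 4636 of the 15863 genes tested.

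HSP90 and its co-chaperones rose almost as a whole. Of 8 genes 7 rose in the average, and the same 7 rose in busulfan + AOS against AOS lungs. Hsp90aa1 (Entrez gene 15519, chr12:110691036-110696395), the inducible cytosolic HSP90, had 3879, 2204 and 1909 CPM in busulfan + AOS lungs, 993, 1638 and 2214 CPM in busulfan lungs, 783, 813 and 1112 CPM in AOS lungs and 949.8, 777 and 1105 CPM in control lungs. Busulfan replicate 1 lay inside the range of the control lungs and the other 2 busulfan libraries above it. Its log2 change was 1.17 (SE 0.23, edgeR adjusted p = 0.0117) in the average and 1.56 (SE 0.32, edgeR adjusted p = 0.0380) in busulfan + AOS against AOS lungs. Hsp90ab1 (Entrez gene 15516, chr17:45567778-45573261), the constitutive form, had 3737, 2817 and 2617 CPM in busulfan + AOS lungs, 1643, 2203 and 2785 CPM in busulfan lungs, 1356, 1304 and 1580.5 CPM in AOS lungs and 1428, 1318 and 1659 CPM in control lungs. Busulfan replicate 1 lay just under control replicate 3, and the average change was 0.85 (SE 0.14, edgeR adjusted p = 0.00525).

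Chordc1 (Entrez gene 66917, chr9:18292267-18314000), a zinc-binding co-chaperone of HSP90, had the smallest p of all 49 members. It stood at 265, 204 and 173 CPM in busulfan + AOS lungs, 98.8, 134 and 179 CPM in busulfan lungs, 66.3, 72.3 and 90.2 CPM in AOS lungs and 66.0, 75.0 and 75.3 CPM in control lungs. The lowest library with busulfan, replicate 1 of the busulfan group, exceeded the highest library without it, replicate 3 of the AOS group. The log2 change was 1.21 (SE 0.15, edgeR adjusted p = 0.00191) in the average, 1.57 (SE 0.22, edgeR adjusted p = 0.00619) in busulfan + AOS against control lungs and 0.93 (SE 0.21, edgeR adjusted p = 0.0684) in busulfan against control lungs. Ahsa1 (Entrez gene 217737, chr12:87266415-87273998), which stimulates the ATPase of HSP90, had 206, 139 and 128 CPM in busulfan + AOS lungs, 89.4, 119 and 136 CPM in busulfan lungs, 69.4, 69.0 and 81.5 CPM in AOS lungs and 68.3, 69.8 and 76.6 CPM in control lungs, and Stip1 (Entrez gene 20867, chr19:7020696-7040026), the adaptor between HSP70 and HSP90, had 485, 310.4 and 271 CPM in busulfan + AOS lungs, 145, 220.1 and 319 CPM in busulfan lungs, 98.0, 102 and 137 CPM in AOS lungs and 106, 101 and 142 CPM in control lungs. Both separated all 6 libraries with busulfan from all 6 without. The log2 change in the average was 0.89 (SE 0.13, edgeR adjusted p = 0.00386) for Ahsa1 and 1.32 (SE 0.21, edgeR adjusted p = 0.00516) for Stip1.

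Fkbp4, a partner of HSP90 in steroid receptors, rose by 0.82 (SE 0.14, edgeR adjusted p = 0.00717) in the average, and Ptges3, the p23 co-chaperone, by 0.65 (SE 0.13, edgeR adjusted p = 0.0111). Cdc37, which brings kinases to HSP90, did not pass: it ranged from 101 to 121 CPM over the 12 libraries, with an average change of 0.10 (SE 0.036, edgeR adjusted p = 0.0914).

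**Figure D2:**
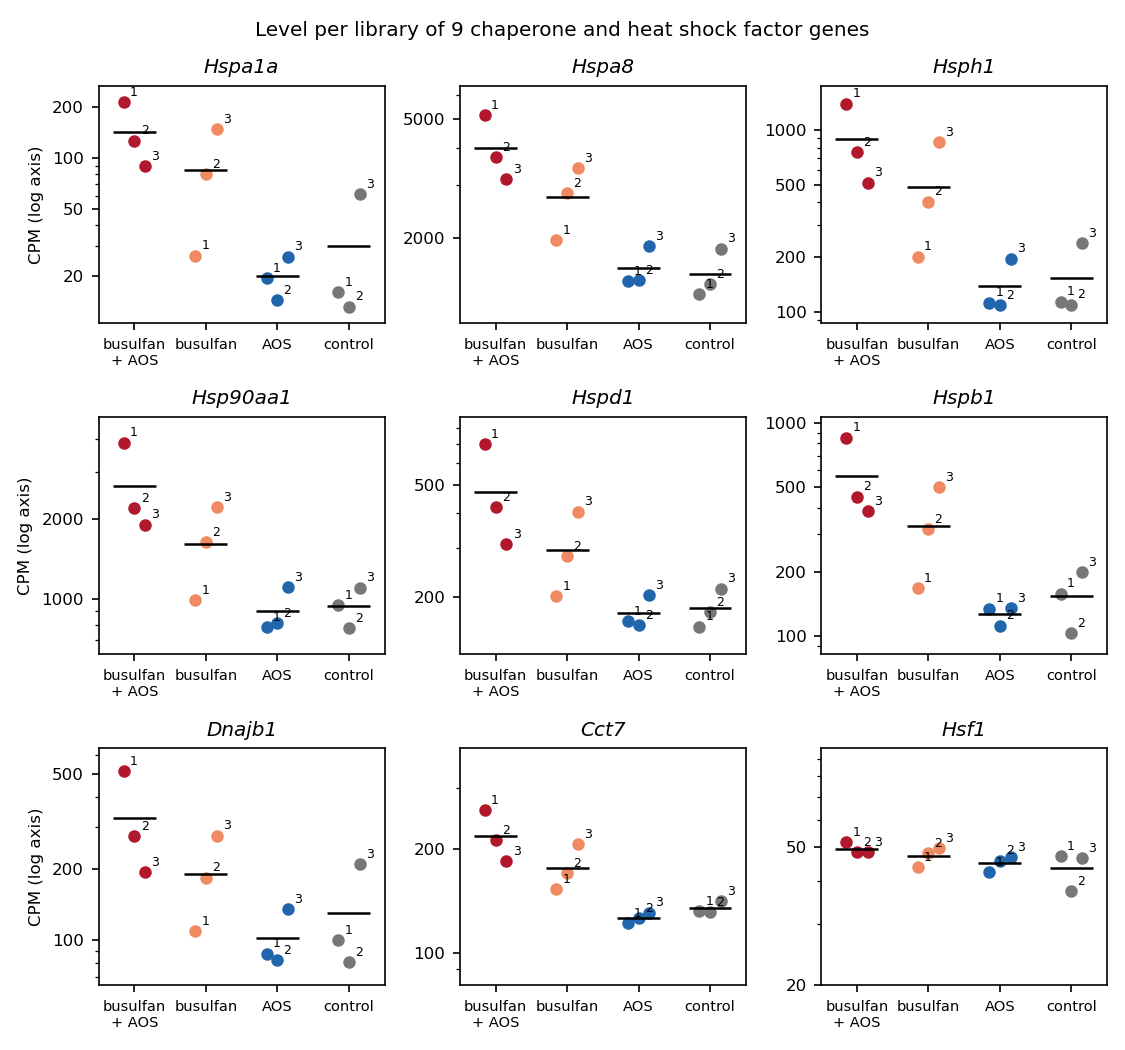
CPM (log axis) of 9 members in each library, with the replicate number beside each point and a bar at the group mean. Busulfan + AOS replicate 1 is the highest point in each panel, busulfan replicate 1 is the lowest busulfan point, and all points of Hsf1 lie between 37.4 and 51.7 CPM.

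The 5 small heat shock proteins did not move as a group. Hspb1 (Entrez gene 15507, chr5:135887919-135889563), the stress-inducible member, had 851, 451 and 385 CPM in busulfan + AOS lungs, 168, 316 and 498 CPM in busulfan lungs, 134, 112 and 135 CPM in AOS lungs and 158, 103 and 199 CPM in control lungs. The busulfan + AOS lungs lay above all AOS and control lungs, and busulfan replicate 1 lay inside the control range. The log2 change was 1.62 (SE 0.29, edgeR adjusted p = 0.00803) in the average, a 3.07-fold rise, and 2.15 (SE 0.41, edgeR adjusted p = 0.0290) in busulfan + AOS against AOS lungs. Hspb8 (Entrez gene 80888, chr5:116408491-116422864), the small partner of Bag3, had 98.6, 62.3 and 66.9 CPM in busulfan + AOS lungs, 65.2, 68.3 and 78.3 CPM in busulfan lungs, 57.7, 35.1 and 43.2 CPM in AOS lungs and 54.1, 56.0 and 41.8 CPM in control lungs. It rose by 0.61 (SE 0.15, edgeR adjusted p = 0.0260) in the average, a call that held in 8 of the 12 fits with 1 library left out.

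Cryab (Entrez gene 12955, chr9:50745951-50756636), which encodes alpha B crystallin, had 256, 216 and 214 CPM in busulfan + AOS lungs, 277, 234 and 232 CPM in busulfan lungs, 183, 186 and 223 CPM in AOS lungs and 225, 218 and 169 CPM in control lungs. Busulfan replicate 1 was its highest library, and the average change was 0.25 (SE 0.090, edgeR adjusted p = 0.0989). Hspb7, a small heat shock protein of heart and skeletal muscle, had 39.6, 11.4 and 18 CPM in busulfan + AOS lungs, 84.6, 17.9 and 7.66 CPM in busulfan lungs, 4.70, 8.0 and 54.9 CPM in AOS lungs and 29.5, 45.3 and 10.1 CPM in control lungs, and Hspb6, another member abundant in muscle, had 14.1, 7.84 and 16.7 CPM in busulfan + AOS lungs, 17.0, 10.3 and 5.09 CPM in busulfan lungs, 6.60, 6.36 and 22.3 CPM in AOS lungs and 11.3, 43.2 and 8.99 CPM in control lungs. Within each group the 3 libraries of Hspb7 spread several-fold and all 4 groups overlapped, with an average change of 0.20 (SE 0.73, edgeR adjusted p = 0.879) for Hspb7 and -0.42 (SE 0.49, edgeR adjusted p = 0.606) for Hspb6.

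Muscle transcripts varied in the same libraries. Summed over 9 cardiac genes such as Myh6 and Myl7, they stood at 1259, 392 and 357 CPM in busulfan + AOS lungs, 3064, 589.6 and 146 CPM in busulfan lungs, 73.4, 238 and 1959 CPM in AOS lungs and 932, 602 and 153 CPM in control lungs. Busulfan replicate 1 and AOS replicate 3 had the highest cardiac sums and also the highest Hspb7. Summed over 14 skeletal muscle genes such as Acta1 and Ckm, the level was 90.1, 32.1 and 701 CPM in busulfan + AOS lungs, 116, 34.7 and 19.2 CPM in busulfan lungs, 348, 85.8 and 116 CPM in AOS lungs and 61.0, 4212 and 326 CPM in control lungs. Control replicate 2 stood highest there and in Hspb6. The next highest Hspb6 was in AOS replicate 3, at 22.3 CPM, where the skeletal sum was 116 CPM. That library had the highest sum of 8 smooth muscle genes, 1043 CPM. The cardiac list had 0 of 9 genes called in the average by edgeR (0 with an unadjusted p under 0.05) and the skeletal list 0 higher and 2 lower of 14. The part of heart, skeletal or smooth muscle in the levels of these members was not tested.

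**Figure D3:**
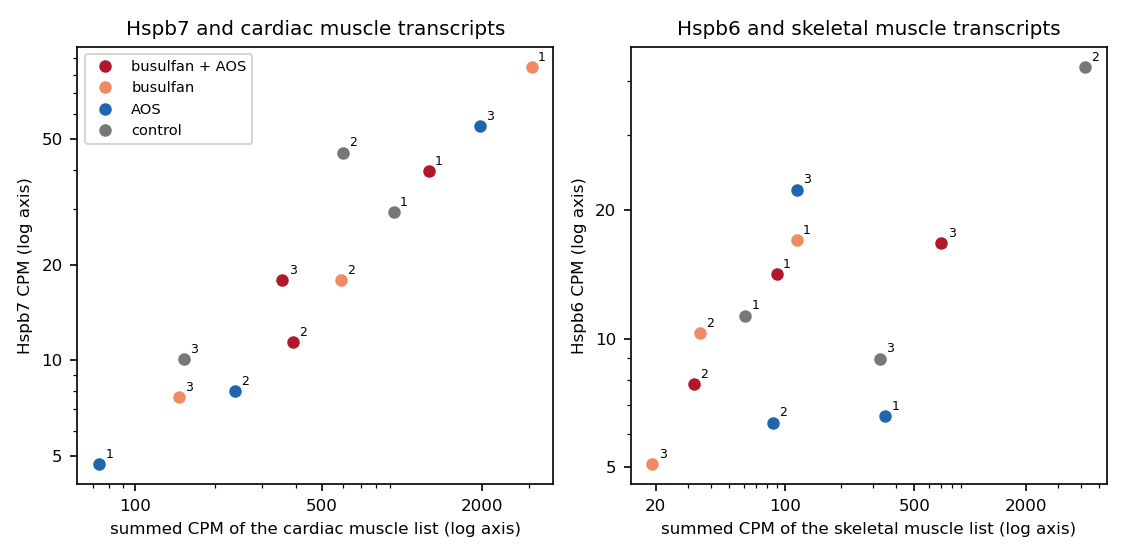
Left, Hspb7 CPM against the summed CPM of 9 cardiac muscle genes; right, Hspb6 CPM against the summed CPM of 14 skeletal muscle genes; both axes are logarithmic, each point is a library and the number is its replicate. Busulfan replicate 1 and AOS replicate 3 stand at the upper right on the left, and control replicate 2 stands alone at the upper right on the right.

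Of the 8 DNAJ genes, the J-domain partners of HSP70, 5 rose in the average (Dnaja1, Dnaja4, Dnajb2, Dnajb4 and Dnajb5). Dnaja1 (Entrez gene 15502, chr4:40722468-40734965), an abundant cytosolic DNAJ, had 1687, 1038 and 849 CPM in busulfan + AOS lungs, 454, 697 and 1014 CPM in busulfan lungs, 334, 321 and 416 CPM in AOS lungs and 294, 319 and 472 CPM in control lungs. Of the libraries with busulfan, only busulfan replicate 1 fell within the range of the control lungs. Its log2 change was 1.37 (SE 0.23, edgeR adjusted p = 0.00616) in the average and 1.74 (SE 0.33, edgeR adjusted p = 0.0273) in busulfan + AOS against AOS lungs. Dnajb1 (Entrez gene 81489, chr8:83608175-83612653), the classic inducible HSP40, had 514, 273 and 193 CPM in busulfan + AOS lungs, 109, 183 and 275 CPM in busulfan lungs, 87.7, 82.7 and 135 CPM in AOS lungs and 100.2, 80.9 and 209 CPM in control lungs. Control replicate 3 lay above busulfan replicates 1 and 2 and above busulfan + AOS replicate 3, and Dnajb1 missed the threshold in the average, at 1.11 (SE 0.33, edgeR adjusted p = 0.0525).

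Dnajb2 (Entrez gene 56812, chr1:75236395-75245692), known from neurons, had 103, 79.3 and 76.8 CPM in busulfan + AOS lungs, 62.6, 74.7 and 79.7 CPM in busulfan lungs, 55.6, 54.8 and 58.6 CPM in AOS lungs and 66.5, 52.9 and 56.4 CPM in control lungs. Its log2 change was 0.46 (SE 0.091, edgeR adjusted p = 0.0125) in the average. Dnajb5 (Entrez gene 56323, chr4:42949867-42959425) had 32.0, 33.2 and 31.2 CPM in busulfan + AOS lungs, 30.2, 34.3 and 31.1 CPM in busulfan lungs, 25.4, 24.5 and 27.4 CPM in AOS lungs and 26.9, 31.7 and 29.0 CPM in control lungs, a narrow range with a log2 change of 0.22 (SE 0.056, edgeR adjusted p = 0.0311). The calls of Dnaja4 (0.88, SE 0.23), Dnajb4 (0.70, SE 0.19) and Dnajb5 held in 6, 4 and 4 of the 12 fits with 1 library left out. Dnaja2 (0.11, SE 0.049) and Dnajb6, a suppressor of protein aggregation, (0.096, SE 0.044) did not pass, although the Dnajb6 promoter holds a match of 3 units.

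Among BAG genes and other partners of HSP70, Bag3 and St13 rose and the other 4 did not pass. Bag3 (Entrez gene 29810, chr7:128523583-128546981), which sends clients of HSP70 to autophagy, had 369, 228 and 179 CPM in busulfan + AOS lungs, 119.6, 159 and 246 CPM in busulfan lungs, 82.4, 88.6 and 107 CPM in AOS lungs and 89.5, 89.1 and 130.2 CPM in control lungs. Busulfan replicate 1 lay under control replicate 3, and all busulfan + AOS libraries lay above both the AOS and control libraries. The log2 change was 1.12 (SE 0.22, edgeR adjusted p = 0.0111) in the average and 1.48 (SE 0.31, edgeR adjusted p = 0.0379) in busulfan + AOS against AOS lungs. St13 (Entrez gene 70356, chr15:81365044-81399694), which stabilises HSP70 with its client bound, had 326, 262 and 253 CPM in busulfan + AOS lungs, 171, 195 and 265 CPM in busulfan lungs, 165, 148 and 158 CPM in AOS lungs and 142, 149.7 and 144 CPM in control lungs. All libraries with busulfan lay above all without it. St13 changed by 0.69 (SE 0.10, edgeR adjusted p = 0.00396) in the average, and its call against control lungs (0.95, SE 0.15) held, like that of Chordc1, whichever library was left out.

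Bag1 (Entrez gene 12017, chr4:40936398-40948294), which links HSP70 to the proteasome, stood at 191, 169 and 151 CPM in busulfan + AOS lungs, 176, 185 and 156 CPM in busulfan lungs, 173, 163 and 171 CPM in AOS lungs and 161, 157 and 154 CPM in control lungs. The groups overlapped apart from AOS against control lungs, and the average change was 0.071 (SE 0.061, edgeR adjusted p = 0.468). Bag2, Bag5 and the ubiquitin ligase gene Stub1 had average changes of 0.032 (SE 0.22), 0.053 (SE 0.067) and -0.0014 (SE 0.066) on the log2 scale.

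Most CCT subunits rose, each by a small amount. Of 7 measured members 6 rose in the average and 4 in busulfan + AOS against AOS lungs, with log2 changes in the average of 0.23 to 0.59. Cct3 (Entrez gene 12462, chr3:88297135-88321766) had 148, 126 and 122 CPM in busulfan + AOS lungs, 96.2, 104 and 128 CPM in busulfan lungs, 83.2, 81.9 and 85.8 CPM in AOS lungs and 80.2, 85.1 and 87.3 CPM in control lungs. Cct7 (Entrez gene 12468, chr6:85451505-85468477) had 259, 212 and 184 CPM in busulfan + AOS lungs, 153, 170.0 and 206 CPM in busulfan lungs, 122, 126 and 131 CPM in AOS lungs and 132, 131 and 141 CPM in control lungs, and Cct5 (Entrez gene 12465, chr15:31590800-31601846) had 190.5, 170.2 and 163 CPM in busulfan + AOS lungs, 143, 147 and 163 CPM in busulfan lungs, 120.3, 128 and 132 CPM in AOS lungs and 128, 140.1 and 136 CPM in control lungs. In these 3 genes all libraries with busulfan lay above all without it, and AOS and control lungs stood close together. The average change was 0.52 (SE 0.074, edgeR adjusted p = 0.00326) for Cct3, 0.59 (SE 0.090, edgeR adjusted p = 0.00429) for Cct7 and 0.31 (SE 0.052, edgeR adjusted p = 0.00638) for Cct5. Tcp1, Cct2 and Cct8 rose by 0.24 to 0.28, and Cct4 did not pass (0.23 (SE 0.082, edgeR adjusted p = 0.0965)). Cct6a, a subunit outside the set, rose by 0.46 (SE 0.082, edgeR adjusted p = 0.00820).

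The transcription factors of the response did not pass at the RNA level. Hsf1 (Entrez gene 15499, chr15:76477362-76501155), the main activator, had 51.7, 48.3 and 48.5 CPM in busulfan + AOS lungs, 43.8, 48.0 and 49.6 CPM in busulfan lungs, 42.3, 45.7 and 46.9 CPM in AOS lungs and 47.0, 37.4 and 46.5 CPM in control lungs. Its log2 change was 0.12 (SE 0.064, edgeR adjusted p = 0.222) in the average and 0.14 (SE 0.090, edgeR adjusted p = 0.424) in busulfan + AOS against AOS lungs, where the 3 libraries of each group did not overlap. Hsf2 (Entrez gene 15500, chr10:57483766-57513143), a related factor active in development, had 22.2, 20.3 and 20.6 CPM in busulfan + AOS lungs, 18.4, 18.7 and 19.5 CPM in busulfan lungs, 19.2, 18.4 and 22.9 CPM in AOS lungs and 21.6, 23.4 and 20.6 CPM in control lungs. Each busulfan library lay below each control library for Hsf2, with a log2 change of -0.21 (SE 0.094, edgeR adjusted p = 0.257), and the average change was -0.076 (SE 0.066, edgeR adjusted p = 0.476). HSF1 is regulated mainly at the protein level, which these libraries do not measure.

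**Figure D4:**
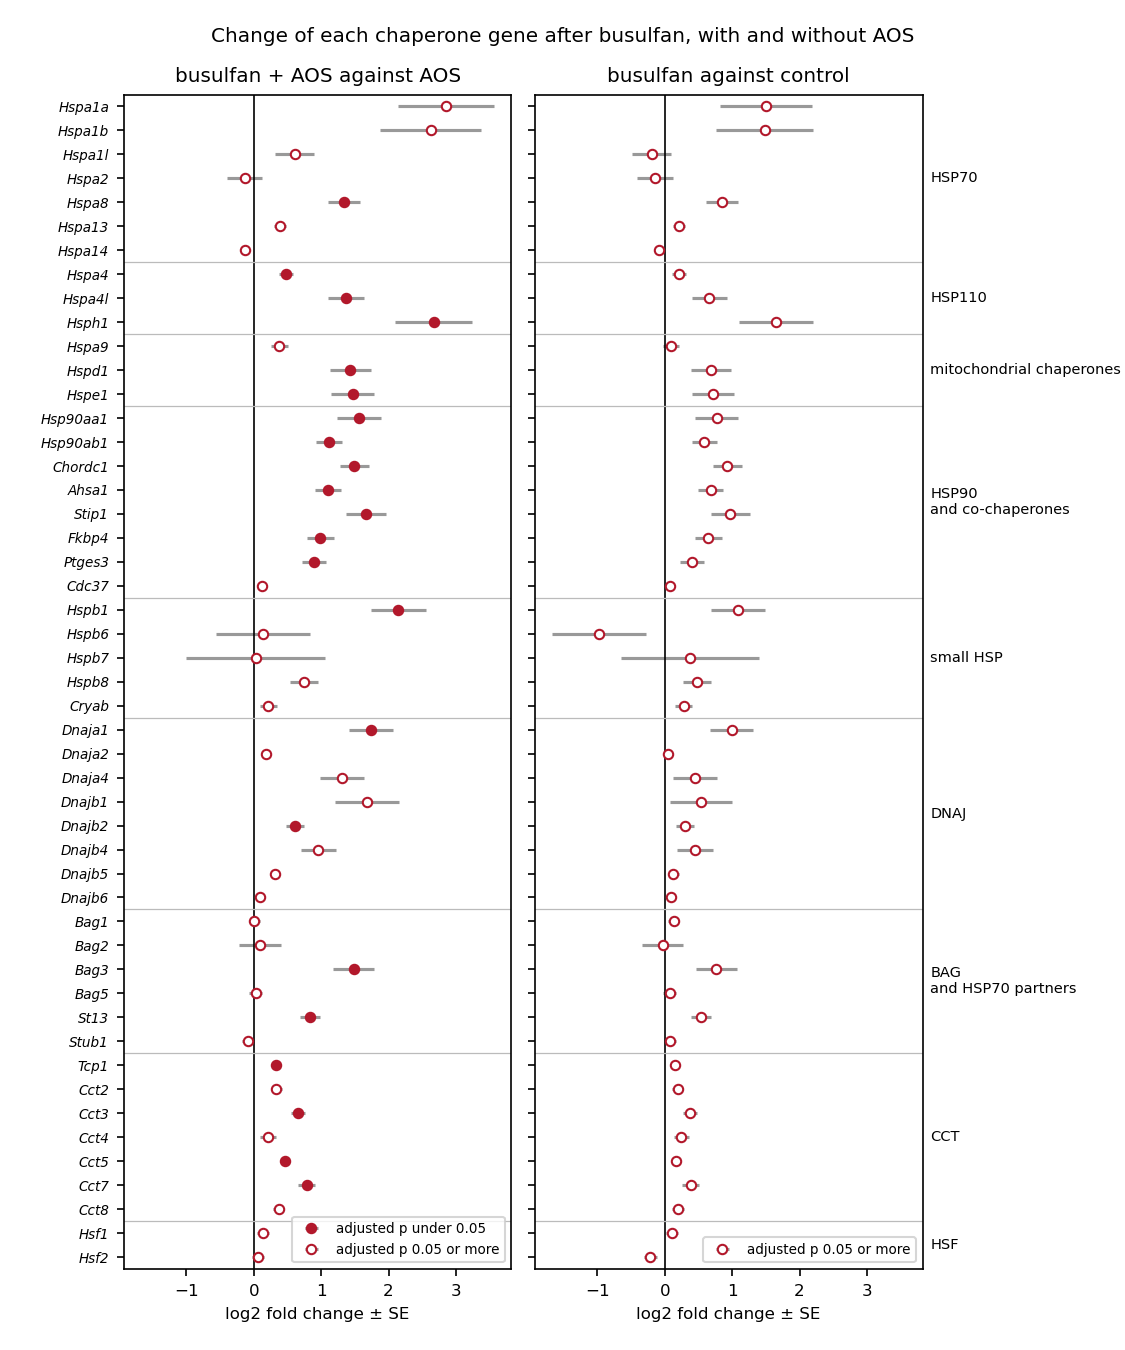
Log2 fold change with its SE of the 49 members in busulfan + AOS against AOS lungs (left) and busulfan against control lungs (right), filled where the edgeR adjusted p was under 0.05. On the left 22 points are filled, all to the right of 0, and on the right 0 are filled and 43 of 49 lie above 0.

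Whether AOS altered chaperone transcripts was asked in lungs without and with busulfan. In AOS against control lungs 0 members passed by edgeR, DESeq2 or limma-voom, as did 0 of all genes by edgeR (background 0%). An unadjusted edgeR p under 0.05 was found for 1 member, Dnajb5 (-0.18, SE 0.080), and for 642 of the 15863 genes tested. The median log2 change of the 49 members was -0.029. For Hspa8 it was 0.067 (SE 0.23), for Hsp90aa1 -0.064 (SE 0.32) and for Hspa1a -0.60 (SE 0.68). Every AOS library lay above every control library in 1 member, Bag1 (4.73% of all genes), and below in 2, Cct7 and Cdc37 (4.78%).

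In busulfan + AOS against busulfan lungs 0 members passed by edgeR, DESeq2 or limma-voom (edgeR background 0%). An unadjusted edgeR p under 0.05 was found for 16 of 49 members and for 1006 of the 15863 genes tested. The log2 difference was positive in 41 of 49 members, with a median of 0.27 against -0.004 over all genes. Hspa4l had 0.74 (SE 0.26, edgeR adjusted p = 0.769), Chordc1 0.64 (SE 0.21, edgeR adjusted p = 0.769) and Hspa8 0.55 (SE 0.23, edgeR adjusted p = 0.769). All busulfan + AOS libraries lay above all busulfan libraries in 4 members, Tcp1, Hspa1l, Hsf2 and Hspa13 (4.68% of all genes), and below in 0 (5.56%).

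The difference between the busulfan changes with and without AOS was tested as an interaction. It passed in 0 of 49 members by edgeR, DESeq2 or limma-voom (background 0%), with a smallest edgeR adjusted p of 0.989 among members. An unadjusted edgeR p under 0.05 was found for 2 members, Cct5, 0.30 (SE 0.10), and Cct7, 0.40 (SE 0.18). This share of the members was no larger than that of all genes tested, where 760 of 15863 had such a p. The interaction was positive in 42 of 49 members and in 8040 of the 15863 genes tested. For Hspa8 it was 0.48 (SE 0.33), for Hsph1 1.01 (SE 0.76) and for Hsp90aa1 0.79 (SE 0.45). The counts of 22 members with AOS and 0 without thus do not show a difference between the busulfan changes.

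Libraries of the same group differed in their chaperone level as a whole. The 49 genes took 2.44, 1.71 and 1.48% of all counts in the busulfan + AOS libraries, 1.00, 1.31 and 1.66% in the busulfan libraries, 0.810, 0.791 and 0.976% in the AOS libraries and 0.833, 0.817 and 0.984% in the control libraries. Busulfan + AOS replicate 1 was the highest of its group in 44 of 49 members, where it was the highest in 39.3% of all genes. Busulfan replicate 3 was highest in 36 members (36.0% of all genes), AOS replicate 3 in 42 (37.7%) and control replicate 3 in 22 (38.0%). Busulfan replicate 1 was the lowest of its group in 35 members (31.3% of all genes). Replicate numbers only name the libraries and give no order.

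Families shared this order of libraries to different degrees. Centred on each gene's mean, the 3 HSP110 genes averaged 1.37, 0.78 and 0.50 on the log2 scale in busulfan + AOS lungs, -0.31, 0.22 and 0.82 in busulfan lungs, -0.76, -0.76 and -0.26 in AOS lungs and -0.64, -0.66 and -0.30 in control lungs. The CCT subunits averaged 0.43, 0.23 and 0.11 in busulfan + AOS lungs, -0.038, 0.067 and 0.22 in busulfan lungs, -0.23, -0.20 and -0.12 in AOS lungs and -0.20, -0.11 and -0.16 in control lungs. In both families busulfan + AOS replicate 1 was the highest library of all 12, but in control lungs replicate 3 was highest for HSP110 and replicate 2 for CCT. The mean of the small heat shock proteins followed another order, with 0.83, -0.059 and 0.26 in busulfan + AOS lungs, 0.54, 0.095 and -0.18 in busulfan lungs, -0.78, -0.83 and 0.25 in AOS lungs and -0.014, 0.37 and -0.48 in control lungs. Its members differed: among busulfan lungs Hspb7, Hspb6 and Cryab were highest in replicate 1, where Hspb1 and Hspb8 were lowest.

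The spread between replicates was wider than for most genes. The SD of log2 CPM within groups had a median of 0.242 over the 49 members, 0.162 over all genes tested and 0.151 over the 14754 genes within the members' range of levels. It was 0.559 for small heat shock proteins, 0.417 for mitochondrial chaperones, 0.355 for HSP110, 0.321 for HSP70, 0.266 for DNAJ, 0.265 for HSP90 and its co-chaperones, 0.157 for BAG genes and partners, 0.109 for the HSF genes and 0.107 for CCT. Members that rose in the average had a median SD of 0.286 and the others 0.137.

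**Figure D5:**
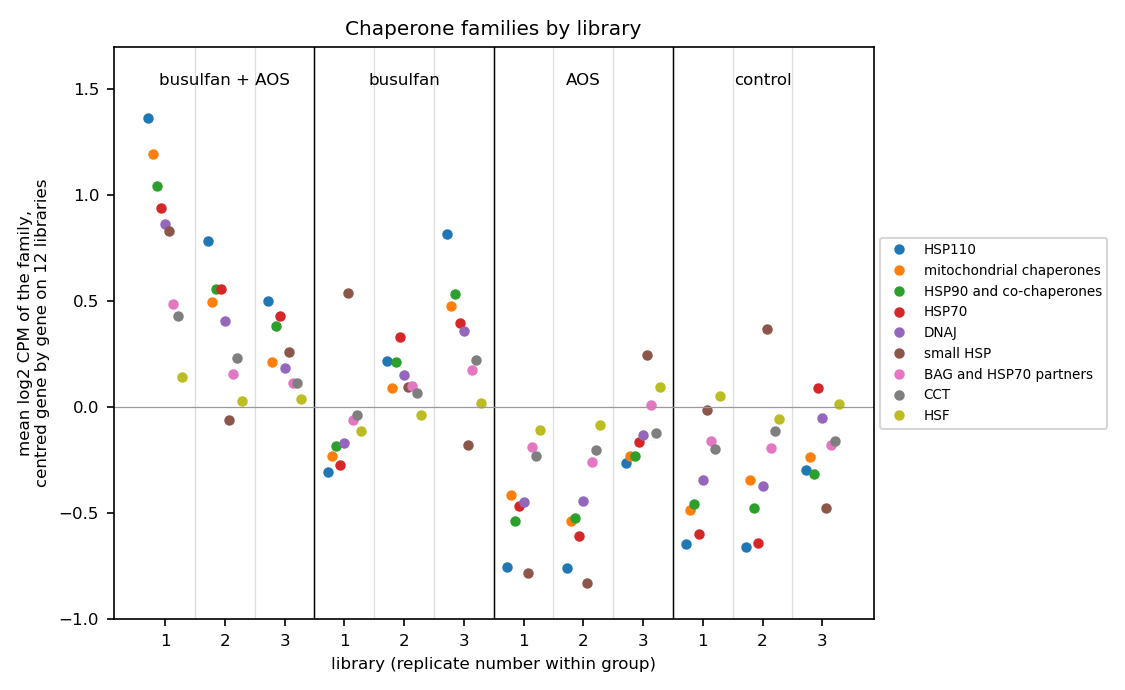
Mean log2 CPM of each family in each library, centred gene by gene on the mean over 12 libraries; each point is a family, and points within a library are set side by side. HSP110 spans 1.37 in busulfan + AOS replicate 1 to -0.76 in AOS replicates, while HSF stays near 0, and in busulfan lungs the small heat shock proteins are highest in replicate 1, where HSP110 is lowest.

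Levels of different genes were compared per length, in FPKM. In control lungs Hspa8 stood first at 781 ± 144 FPKM (SD, n = 3), followed by Hsp90ab1 at 629 ± 72.7 FPKM, Hsp90aa1 at 353 ± 60.7 FPKM, Cryab at 252 ± 38.4 FPKM and Hspb1 at 203 ± 64.2 FPKM. The neighbours Hspa8 and Hsp90ab1 differed by less than the sum of their SDs, and so did Cryab and Hspb1. In busulfan + AOS lungs Hspa8 had 1992 ± 478 FPKM, Hsp90ab1 1264 ± 225 FPKM, Hsp90aa1 960.0 ± 365 FPKM and Hspb1 719 ± 310.1 FPKM, while Cryab had 273 ± 23.9 FPKM. The inducible Hspa1a stood 44th of 49 in control lungs, at 11.5 ± 10.2 FPKM, against 52.8 ± 22.6 FPKM in busulfan + AOS lungs. Hsph1 had 261 ± 132 FPKM in busulfan + AOS lungs and 42.9 ± 17.9 FPKM in control lungs.

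Related gene lists outside the set were counted in the same average over both busulfan groups. Of 24 other cytosolic chaperones and co-chaperones tested, 5 rose and 0 fell, with a median log2 change of 0.062. They were Cacybp, an HSP90-related ubiquitin adaptor, at 1.00 (SE 0.16, edgeR adjusted p = 0.00552), the endothelial HSP70 relative Hspa12b at 0.48 (SE 0.075, edgeR adjusted p = 0.00484), Cct6a, the cyclophilin gene Ppid at 0.33 (SE 0.080, edgeR adjusted p = 0.0254) and Fkbp5, a steroid-receptor co-chaperone that was named after its value was seen. Of the 5 prefoldin subunits tested, which pass chains to CCT, 0 passed by edgeR (0 with an unadjusted p under 0.05). All 14 chaperones of the endoplasmic reticulum rose. Their summed level was 6548, 6136 and 6242 CPM in busulfan + AOS lungs, 4826, 5192 and 5879 CPM in busulfan lungs, 3701, 3611 and 3793 CPM in AOS lungs and 3671, 3742 and 3757 CPM in control lungs. In the busulfan against control comparison, where 0 of the 49 cytosolic and mitochondrial members passed, 13 of these 14 did. The median log2 change there was 0.52 for the 14 and 0.38 for the 49 members. An unadjusted edgeR p under 0.05 was found there for all 14, for 26 of the 49 and for 2964 of the 15863 genes tested.

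A list of 10 other genes, taken as heat-inducible or tied to heat shock factors, held no cytosolic or mitochondrial chaperone. Of these, 5 rose and 0 fell. Serpinh1, a collagen chaperone of the endoplasmic reticulum often used as a heat shock gene, rose by 1.04 (SE 0.13, edgeR adjusted p = 0.00199). Ier5, a partner of HSF1, rose by 0.36 (SE 0.053, edgeR adjusted p = 0.00359). Mean Ier5 was 97.9 CPM in busulfan + AOS lungs and 61.8 CPM in AOS lungs. Busulfan and control lungs stood close together, at 68.0 and 65.3 CPM. The Ier5 interaction was 0.60 (SE 0.11), with an edgeR p of 0.000152 before and 0.989 after adjustment. Both cold-inducible RNA-binding protein genes fell, Cirbp by -0.79 (SE 0.083, edgeR adjusted p = 0.000661) and Rbm3 by -0.32 (SE 0.064, edgeR adjusted p = 0.0124), given as signed log2 changes. Of 15 immediate early genes, which respond to tissue handling as well as to signals, 0 rose and 1, Klf2, fell, at -0.60 (SE 0.12, edgeR adjusted p = 0.0115). The sum of these 15 was 2533, 2151 and 1689 CPM in busulfan + AOS lungs, 1321, 2007 and 2029.5 CPM in busulfan lungs, 2220.1, 1800.3 and 2995 CPM in AOS lungs and 1779, 1935 and 3152 CPM in control lungs. In each group the library with the highest sum, busulfan + AOS replicate 1 and replicate 3 of the other groups, was also the highest of its group in the largest number of chaperone members. The part of handling in the chaperone levels was not tested.

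All 14 p53 targets, known to respond to crosslinked DNA, rose in the same average. They were listed with earlier results of these data known, so they are no independent check of the busulfan label. Of 10 lung identity genes 3 rose and 0 fell, and 0 of 8 smooth muscle genes and 0 of 8 multiciliated cell genes passed by edgeR (0 and 1 with an unadjusted p under 0.05). All 7 B cell genes fell.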

How the data were processed

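The members, their families and the other gene lists were chosen with earlier results of these data known. The authors deposited 1 table of 19726 genes with estimated counts per library, not normalised, of which 75.9 to 77.1% were whole numbers. A further set of columns is FPKM as deposited; the headers name no unit, and FPKM was inferred because the implied gene length varied between libraries by a median coefficient of 0.628% over 8900 genes. The authors' group means were not used. The genome build named in the submitters' processing notes is mm10. Aligner, counting program and use of strand are not given in the sources, so reads of overlapping genes and of near-identical copies cannot be told apart.

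Estimated counts were rounded, filtered with filterByExpr (15863 genes kept) and scaled by TMM (factors 0.963 to 1.03). A single model of 4 group means was fitted with edgeR 4.0.16 over all 12 libraries, in R 4.3.3 (common biological coefficient of variation 0.229), and contrasts were tested with the quasi-likelihood F test and Benjamini-Hochberg adjustment over all genes. The SE is the absolute log2 fold change divided by the square root of F. CPM uses TMM-scaled totals, and the average over both busulfan groups is their mean minus that of the AOS and control groups on the log2 scale. The script was tested on simulated data. Where a library has 0 counts, up to 3 counts (0.175 to 0.185 CPM) are allowed by counting error. Libraries of a group were not copies of each other: chi-square per degree of freedom was 18.2 to 40.3 over the 12 pairs.

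Alternatives were DESeq2 1.42.0, limma-voom (limma 3.58.1), scaling by upper quartiles or by median-of-ratios, testing genes without a low-count filter or with at least 1 CPM in 3 libraries, fits restricted to the groups compared, a replicate block, and leaving out each library in turn. Members described library by library were the 3 with the smallest p in the average per family and a set of anchors (Hspa1a, Hspa1b, Hspa8, Hsp90aa1, Hsp90ab1, Hspb1, Hspd1, Hspe1, Dnajb1, Bag3, Hsf1), with Hspb6, Hspb7 and Hspa14 added after their values were seen. At most 4 genes per other list were given with values, by smallest p; Fkbp5 and the examples of the lung and muscle lists (Sftpc, Ager, Myh6, Myl7, Acta1 and Ckm) fall outside that rule and are named without a test value. Coordinates and promoters are from RefSeq on GRCm38.p6, the assembly that mm10 names, matched by Entrez ID for all 49 members. Figures used Python 3.11.15, matplotlib 3.10.9, pandas 2.3.3 and numpy 2.4.6.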

Additional observations from a re-analysis of the deposited data

How the results depend on the processing

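Directions held throughout: no member that rose changed sign under any alternative run. The average over both busulfan groups gave 30 to 33 members under other scalings, filters and tools, and 25 to 34 when a library was left out. Busulfan + AOS against AOS gave 21 to 33 members under those alternatives, 13 with only the groups compared and 0 to 25 when a library was left out. Busulfan + AOS against control gave 23 to 28, 8 with only the groups compared and 2 to 26 when a library was left out. These fits have fewer samples, and shares over all genes were not counted in them. Busulfan against control gave 8 members with DESeq2, where the cause was not tested and no share over all genes was counted. It gave 0 to 1 when a library was left out, the 1 arising once replicate 1 of either busulfan group was dropped. The comparisons of AOS and the interaction stayed at 0 under all alternatives run.

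Same-numbered libraries did not deviate together (18 pairs, correlations -0.253 to 0.182, 2 above 0.1, 2 of 12 libraries closest to their own number), so the numbers were not taken as pairs. With the replicate number as a block, 29 members passed in the average, 7 in busulfan + AOS against AOS and 10 in busulfan + AOS against control. Shares over all genes were not counted with the block. Upper-quartile factors changed the split of all genes in the average from 1114 higher and 763 lower to 767 and 1092, while 30 members rose.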
